A study of Mus musculus with 10 samples.

Results

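The matrix metalloproteinases (MMPs), the tissue inhibitors of metalloproteinases (TIMPs) and the related protease ADAMTS1 were followed in RNA of purified cardiomyocytes (CMs) of young and old mice. The set holds 9 genes, chosen by symbol from the 37819 features of the expression table: the inhibitors Timp1, Timp2, Timp3 and Timp4, the secreted gelatinases Mmp2 and Mmp9, the membrane-type proteases Mmp14 and Mmp15, and Adamts1. All mice were of the inbred strain C57BL6J, and both sexes were used. The young group was 3 months old and the old group 20 months old, with 5 libraries each, and no further treatment is given for either age. Hearts of both groups were digested with enzymes on a Langendorff perfusion setup, the myocytes were sedimented, and cells positive for CD31, SCA1 or CD45 (marks of endothelial cells, stromal cells and leukocytes) were taken out with a selection kit. The libraries were sequenced on 1 flow cell. The labels do not state that each library came from its own animal. A legend of the study gives fewer mice per age than there are libraries, while another gives n = 5 per age group. Here n counts libraries, and p-values measure the spread between them, which may in part be technical.

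Levels are given as FPKM, fragment numbers divided by the length of the transcript and by the mapped fragments of the library, so that genes of different length can be set side by side. The sequencing depth of each library is unknown. An exact 0 is given as listed.

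MMPs are zinc-dependent proteases that cut collagens, gelatin, laminins and other matrix proteins, and they are made as inactive proenzymes. The gelatinases are released from the cell, while membrane-type MMPs stay anchored at its surface, where MMP14 together with TIMP2 can activate the proenzyme of MMP2. TIMPs bind the active site of MMPs. TIMP3 is held in the matrix and also blocks several ADAM and ADAMTS proteases, and TIMP4 is known for its expression in the heart. In the heart the balance between these proteases and inhibitors is known for its part in collagen turnover and remodelling of the ventricle. RNA levels do not measure protease activity.

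In the mm9 build with the GENCODE annotation, Timp1 (ENSMUSG00000001131) lies at chrX:20447292-20451861 on the plus strand, Timp2 (ENSMUSG00000017466) at chr11:118162383-118217054 on the minus strand, Timp3 (ENSMUSG00000020044) at chr10:85763117-85812251 on the plus strand and Timp4 (ENSMUSG00000030317) at chr6:115195634-115201867 on the minus strand. Timp1, Timp3 and Timp4 each sit inside a synapsin gene on the opposite strand, namely Syn1, Syn3 and Syn2. The exons of Timp3 and Syn3 share 1733 bases, while those of the other pairs share 0. It is not stated whether counting used the strand, so reads of Timp3 and Syn3 in the shared bases cannot be told apart. Syn3 itself had a mean of 0.167 FPKM in young and 0.226 in old libraries, Syn1 0.0511 and 0.0606, and Syn2 0.477 and 0.671. Mmp2 (ENSMUSG00000031740, chr8:95351227-95377316) and Mmp15 (ENSMUSG00000031790, chr8:97876168-97898193) lie on the plus strand of the same chromosome. Mmp9 (ENSMUSG00000017737, chr2:164766280-164781350) and Mmp14 (ENSMUSG00000000957, chr14:55050441-55060095) are on plus strands, and Adamts1 (ENSMUSG00000022893, chr16:85794072-85803358) is on a minus strand.

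The promoters were taken from RefSeq in the GRCm38.p6 build, which has entries for 7 of the 9 genes (Mmp2 and Mmp9 have none), and the 250 bases before each start were searched on both strands. The AP-1 motif TGANTCA, to which Fos and Jun proteins bind, was in 0 of the 7 promoters and in 6.75% of all 32841 promoters of the same length. A GC box GGGCGG, the letters bound by Sp1-type factors, was in 6 of 7 promoters and in 32.7% of all. Timp4 was the promoter without it. TATAAA was found in Adamts1 and in 12.4% of all promoters. The 100 bases before the start are shown for the TIMPs, to set Timp4 beside the other inhibitors, and for Adamts1, which held 3 GC boxes in its 250 bases. Capitals mark a GC box on either strand and, in Adamts1, also TATAAA.
Timp1, chrX:20870066-20870165, plus strand: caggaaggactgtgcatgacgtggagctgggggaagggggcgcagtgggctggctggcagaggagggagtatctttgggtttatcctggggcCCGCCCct
Timp2, chr11:118355412-118355511, minus strand: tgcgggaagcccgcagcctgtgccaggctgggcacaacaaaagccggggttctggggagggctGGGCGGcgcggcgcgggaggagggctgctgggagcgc
Timp3, chr10:86300312-86300411, plus strand: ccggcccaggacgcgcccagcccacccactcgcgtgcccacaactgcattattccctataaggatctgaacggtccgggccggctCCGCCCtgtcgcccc
Timp4, chr6:115252206-115252305, minus strand: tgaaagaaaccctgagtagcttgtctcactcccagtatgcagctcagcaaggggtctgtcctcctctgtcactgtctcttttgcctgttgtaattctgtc
Adamts1, chr16:85803114-85803213, minus strand: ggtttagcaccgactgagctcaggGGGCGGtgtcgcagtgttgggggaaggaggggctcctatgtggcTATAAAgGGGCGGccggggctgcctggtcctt
These matches are descriptions of letters, and binding was not measured in these CMs. The GC box and TATAAA were added to the search after the data were seen.

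Before the ages were compared, the libraries were checked for RNA of other cells, since every gene of the set can also be made by fibroblasts, vessel cells or leukocytes. The 8 CM markers (Myh6, Tnnt2, Ryr2 and others) summed to 27752 to 31068 FPKM in young and 25885 to 29408 in old libraries, so the CM label holds. RNA of other cell types was still present. The 10 fibroblast markers summed to 57.5 to 148 FPKM in young and 54.6 to 155 in old libraries. The 10 endothelial markers summed to 436 to 957 and 448 to 847, the 8 mural cell markers to 87.8 to 173 and 80.6 to 168, and the 10 leukocyte and macrophage markers to 24.7 to 76.9 and 27.5 to 51.5. No marker of these lists was at 0 in any library. Young library 4 and old library 1 had the highest sum of their age for all 4 of these lists and the lowest CM marker sum. Without them the fibroblast sums reached 81.3 in young and 91.5 in old libraries. Of the 38 single markers, all but Cspg4, Acta2, Cldn5 and Cd68 had their young and old maximum in this pair. The mural marker Acta2 went the other way, with its minimum of each age there (20.0 and 13.9 FPKM). Cldn5 peaked in library 3 of both ages (24.7 and 20.2 FPKM). Rgs5 alone supplied 115 of the 173 FPKM of the mural sum in young library 4 and 117 of the 168 in old library 1. Fabp4 supplied 668 of the 957 FPKM of the endothelial sum in young library 4 and 537 of the 847 in old library 1. Dcn supplied 85.0 of the 148 FPKM of the fibroblast sum in young library 4 and 74.5 of the 155 in old library 1. In bulk RNA, fewer cells of a type and less RNA per cell cannot be told apart.

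The same pair of libraries stood out for the protease and inhibitor genes. Young library 4 was the highest of the young libraries for 6 of the 9 genes, and old library 1 was the highest of the old libraries for 6 of the 9. The part of other cells in these levels was not tested, and the log2 difference of each tested gene of the set is therefore given with and without this pair, an alternative added after the data were seen.

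**Figure D1:**
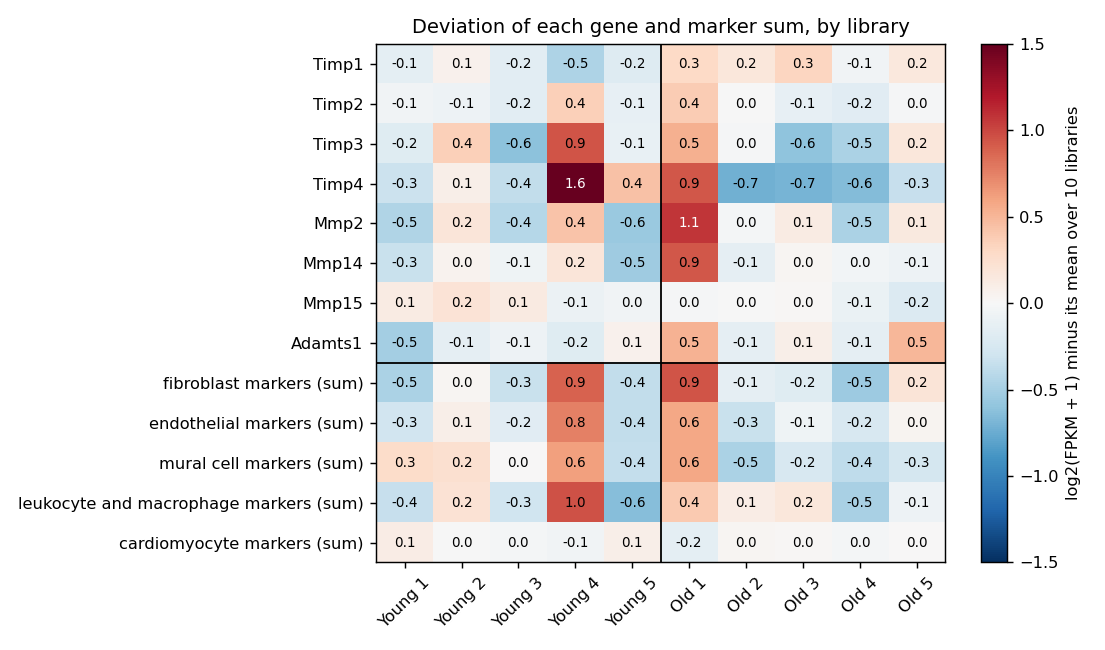
Deviation of each library from the mean over 10 libraries, in log2(FPKM + 1), for the 8 genes whose mean reached 1 FPKM (rows above the line) and for the summed FPKM of 5 marker lists (below it), with red for higher and blue for lower. The columns of young library 4 and old library 1 are red for Timp2, Timp3, Timp4, Mmp2, Mmp14 and the fibroblast, endothelial, mural and leukocyte sums, while Mmp15 is pale throughout and Timp1 is blue in young library 4.

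The order of the mean levels was the same at both ages, with Mmp15 first, followed by Timp3, Timp4, Timp2, Adamts1, Mmp2, Mmp14, Timp1 and Mmp9. In young libraries the ranges of mean ± SD of neighbours overlapped except between Timp2 and Adamts1, between Mmp2 and Mmp14, and between Timp1 and Mmp9. In old libraries they overlapped except between Mmp15 and Timp3 and between Timp1 and Mmp9. The genes also differed in how far the libraries spread. The coefficient of variation over all 10 libraries was 8.86% for Mmp15 and 16.6% for Timp2, against 72.9% for Timp4, 49.9% for Mmp2 and 49.7% for Mmp14. The highest library had 1.34 times the level of the lowest for Mmp15 and 5.67 times for Timp4.

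To ask which of these genes differed with age, all 12340 features whose mean reached 1 FPKM were tested together on the log2(FPKM + 1) scale with limma, and p-values were adjusted over all of them (Benjamini-Hochberg) with a threshold of 0.05. Of the 9 genes 8 reached this mean, and Mmp9 did not. Of these 8, 0 passed, where 1.78% of all tested features did (220, with 0.689% of features higher and 1.09% lower in old CMs, which is 85 and 135). The split of these 220 depends on the scaling of the libraries, with 105 higher and 30 lower after median-ratio scaling and 133 higher and 39 lower after scaling to the same total. At an unadjusted limma p under 0.05 there was 1 of the 8, Timp1, where 20.9% of all features were under it. In exact permutation tests of the mean FPKM over 5 against 5 libraries, Timp1 was likewise the only one of the 9 genes under 0.05, with an unadjusted p = 0.0159. The young and old libraries of 0 of the 8 genes were free of overlap, as was the case for 6.91% of all features (1.19% with the old libraries above and 5.72% with them below). The fitted difference was positive for 5 genes and negative for 3, with a median of 0.15 against -0.058 for all features. The direction of each of the 8 was the same after both scalings.

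**Figure D2:**
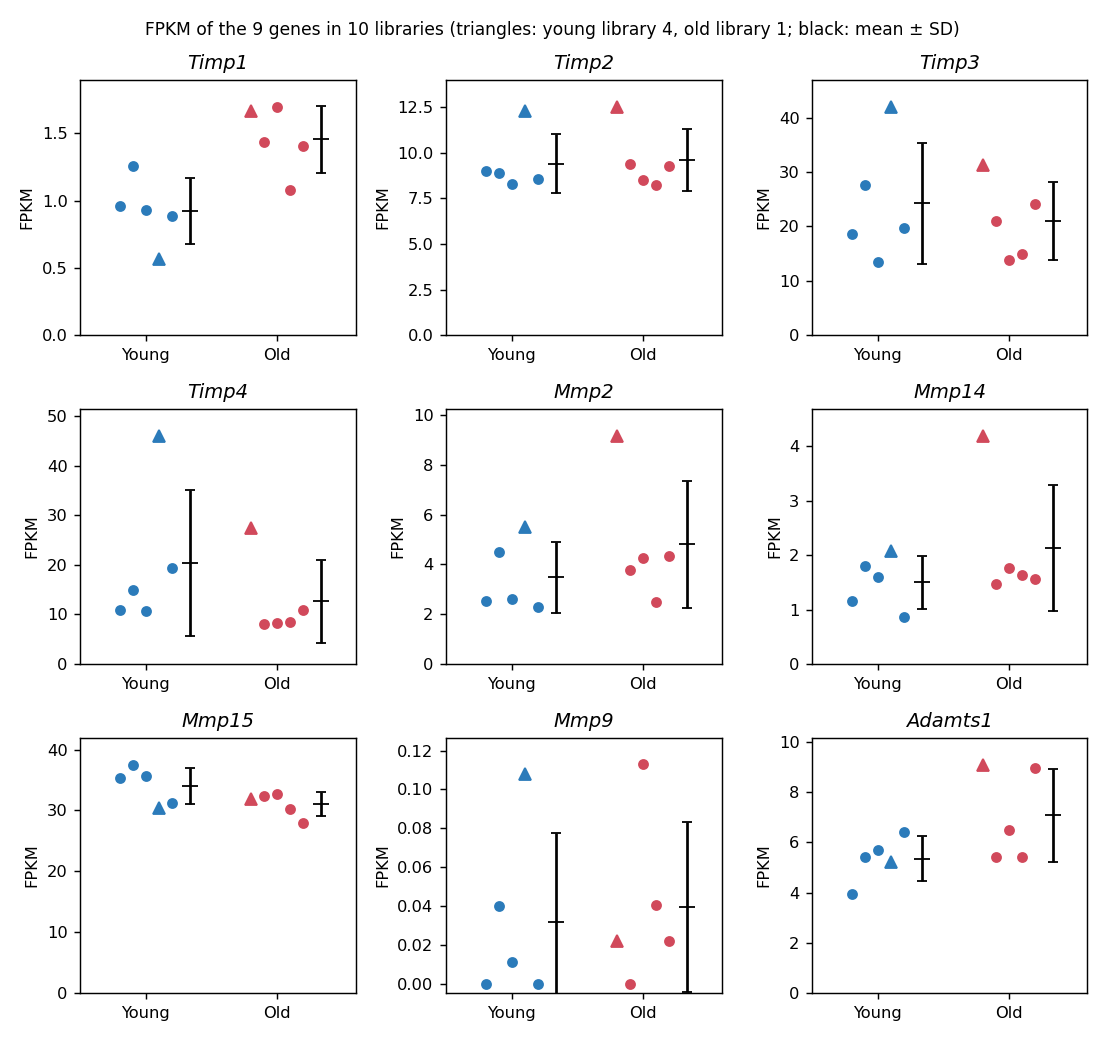
FPKM of each of the 9 genes in the 5 young (blue) and 5 old (red) libraries, with the mean and SD in black beside the points and triangles for young library 4 and old library 1. Each panel has its own linear axis, which includes 0, and the lower SD bars of Mmp9 run below 0. The old points of Timp1 lie above the young ones except in 1 library, while young library 4 stands at 46.0 FPKM for Timp4 and old library 1 at 4.18 FPKM for Mmp14.

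Timp1, an inhibitor of most secreted MMPs that is often raised in injured tissue, was the least abundant TIMP. It was at 0.959, 1.26, 0.931, 0.567 and 0.887 FPKM in young libraries 1 to 5 and at 1.66, 1.44, 1.69, 1.08 and 1.41 FPKM in old libraries 1 to 5. Every old library but the fourth lay above all young ones, and the lowest level of all was in young library 4, where the other TIMPs were at their young maximum. The mean was 0.920 ± 0.246 FPKM in young CMs and 1.46 ± 0.248 FPKM in old CMs (SD, n = 5 each), a ratio of 1.58. The log2 difference was 0.36 (SE 0.11, 95% interval 0.11 to 0.61) with an adjusted p = 0.120 in limma, and without young library 4 and old library 1 it was 0.26 (adjusted p = 0.230). Over all alternatives the adjusted p of Timp1 was 0.109 to 0.230.

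Timp2, which inhibits MMP2 and also takes part in its activation, was the steadiest TIMP. It was at 9.003, 8.89, 8.31, 12.3 and 8.54 FPKM in young libraries 1 to 5 and at 12.5, 9.37, 8.53, 8.24 and 9.26 FPKM in old ones. Apart from young library 4 and old library 1, all libraries lay close together and the ages overlapped. The means were 9.40 ± 1.63 and 9.58 ± 1.70 FPKM (SD, n = 5 each). The log2 difference was 0.024 with a 95% interval of -0.24 to 0.29 (limma, adjusted p = 0.941), which narrowed to -0.10 to 0.15 without this pair. Its sign turned in 3 of the fits that left out 1 library, with -0.068 without old library 1 and 0.11 without young library 4.

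Timp3, the matrix-bound inhibitor, was the most abundant TIMP. Its level was 18.6, 27.5, 13.5, 41.9 and 19.7 FPKM in young libraries 1 to 5 and 31.4, 21.1, 13.7, 15.0 and 24.1 FPKM in old ones. The highest library of each age was again young library 4 and old library 1, and all old libraries lay within the young range. The means were 24.2 ± 11.1 and 21.0 ± 7.17 FPKM (SD, n = 5 each), and the log2 difference was -0.15 (SE 0.30, limma, adjusted p = 0.826). Without young library 4 and old library 1 it was -0.091 (SE 0.23, adjusted p = 0.873), and without young library 4 alone it turned to 0.063. These values carry the limit of the exons shared with Syn3.

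Timp4, the TIMP best known from heart tissue, had the widest spread of the 8 tested genes. It was at 11.0, 14.9, 10.6, 46.0 and 19.3 FPKM in young libraries 1 to 5 and at 27.5, 8.11, 8.22, 8.55 and 10.8 FPKM in old ones. Old libraries 2 to 4 lay below all young libraries and old library 5 lay within the young range, while old library 1 was above every young library but the fourth. The means were 20.4 ± 14.8 and 12.6 ± 8.38 FPKM (SD, n = 5 each). The log2 difference was -0.59, the largest in size of the 8 on the log2(FPKM + 1) scale, with an SE of 0.42 and an adjusted p = 0.475 in limma. Without young library 4 and old library 1 the difference was -0.56, its SE fell to 0.18 and its adjusted p was 0.189. With the mean of 38 markers of other cells as a covariate the difference was -0.62 (adjusted p = 0.169). Without young library 4 alone it was -0.26 and without old library 1 alone -0.90, and the adjusted p over all alternatives lay between 0.169 and 0.716. With 0.1 in place of 1 added to FPKM, the difference was -0.63 for Timp4 and 0.63 for Timp1.

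Mmp2, gelatinase A, was at 2.54, 4.51, 2.61, 5.49 and 2.28 FPKM in young libraries 1 to 5 and at 9.16, 3.76, 4.25, 2.50 and 4.34 FPKM in old ones. Old library 1 was the highest of all and young library 4 the next, and the other old libraries lay within the young range. The means were 3.49 ± 1.43 and 4.80 ± 2.54 FPKM (SD, n = 5 each), with a log2 difference of 0.33 (SE 0.28, limma, adjusted p = 0.560). The marker covariate left the difference of Mmp2 at 0.31 and lowered its SE to 0.096, with an adjusted p = 0.104, the smallest of any of the 8 genes under any alternative. Without young library 4 and old library 1 the difference was 0.25 (adjusted p = 0.526). Without old library 1 alone it was 0.11, and the adjusted p of Mmp2 over its alternatives reached 0.831.

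Mmp9, gelatinase B, an enzyme of neutrophil granules, was close to the floor of these data. It was listed at 0, 0.0400, 0.0116, 0.108 and 0 FPKM in young libraries 1 to 5 and at 0.0223, 0, 0.113, 0.0405 and 0.0224 FPKM in old ones. Zeros and the highest values occurred at both ages. The difference in mean FPKM was within the spread between libraries (two-sided exact permutation test, p = 0.690, where the smallest possible p is 0.00794). The 9 neutrophil markers summed to 1.39 to 2.91 FPKM in young and 1.21 to 3.26 in old libraries, and 7 of the 9 (among them S100a8 and S100a9) were at 0 in at least 1 library. Lcn2 and Ly6g had the highest means over all libraries, 1.10 and 0.642 FPKM, followed by S100a8 with 0.105 FPKM.

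Mmp14, the membrane-type protease that activates MMP2, was at 1.15, 1.81, 1.59, 2.07 and 0.867 FPKM in young libraries 1 to 5 and at 4.18, 1.46, 1.76, 1.64 and 1.57 FPKM in old ones. Old library 1 stood alone above the rest, and the 4 other old libraries lay within the young range. The means were 1.498 ± 0.488 and 2.12 ± 1.16 FPKM (SD, n = 5 each), and the log2 difference was 0.28 (SE 0.22, limma, adjusted p = 0.510). It was 0.16 without young library 4 and old library 1 and 0.084 without old library 1 alone.

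Mmp15, the other membrane-type protease, was the most abundant gene of the set and the most even. It was at 35.3, 37.5, 35.6, 30.5 and 31.3 FPKM in young libraries 1 to 5 and at 31.9, 32.3, 32.7, 30.2 and 27.9 FPKM in old ones. Young libraries 1 to 3 lay above all old ones and young libraries 4 and 5 among them, so young library 4 was at the low end here. The means were 34.04 ± 3.01 and 31.0 ± 1.98 FPKM (SD, n = 5 each). The log2 difference of -0.13 (SE 0.067, 95% interval -0.28 to 0.021, limma, adjusted p = 0.312) was smaller in size than any other but that of Timp2. It shrank to -0.062 after median-ratio scaling and to -0.042 after scaling to the same total. Without young library 4 and old library 1 it was larger in size, at -0.18 (95% interval -0.34 to -0.014, adjusted p = 0.245), and without young library 4 alone it was -0.17 (adjusted p = 0.187).

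Adamts1, a secreted protease that cuts the proteoglycans versican and aggrecan, was at 3.95, 5.43, 5.71, 5.22 and 6.40 FPKM in young libraries 1 to 5 and at 9.09, 5.42, 6.49, 5.41 and 8.98 FPKM in old ones. Old libraries 1, 3 and 5 lay above all young libraries, and the other old ones lay within the young range. The means were 5.34 ± 0.898 and 7.08 ± 1.84 FPKM (SD, n = 5 each). The log2 difference was 0.33 (SE 0.16, 95% interval -0.014 to 0.68, limma, adjusted p = 0.260) and was 0.24 without young library 4 and old library 1. Versican (Vcan), its substrate, had a mean of 0.602 FPKM over all libraries and was below the minimum for testing.

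**Figure D3:**
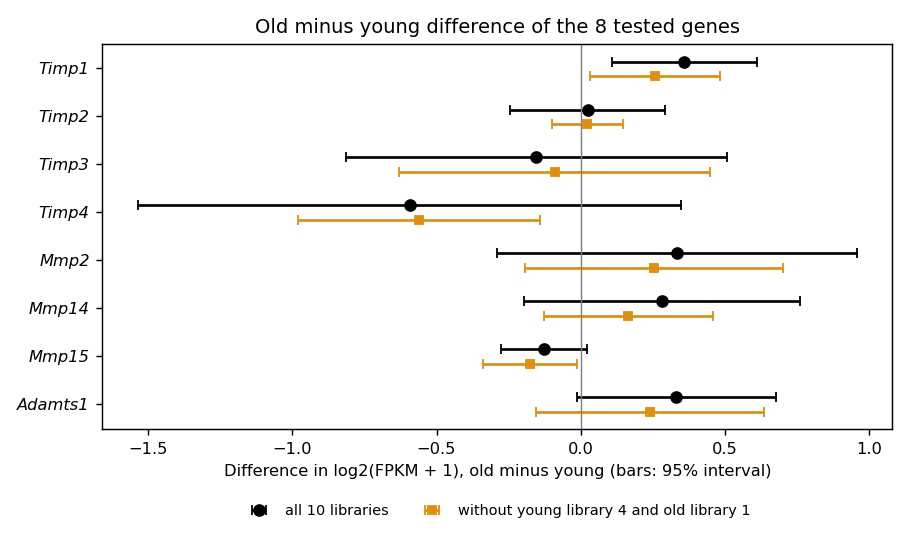
Difference between old and young CMs on the log2(FPKM + 1) scale with its 95% interval for the 8 tested genes, from all 10 libraries (black) and without young library 4 and old library 1 (orange). The interval of Timp1 lies above 0 in both fits, and that of Timp4 runs from -1.53 to 0.35 with all libraries and from -0.98 to -0.14 without the pair. That of Mmp15 runs from -0.28 to 0.021 with all libraries and from -0.34 to -0.014 without the pair. The intervals are not adjusted for the number of features.

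The makeup of the inhibitors within a library does not depend on how libraries are scaled. Summed over the 4 TIMPs, the level was 54.9 ± 26.7 FPKM in young CMs and 44.7 ± 16.7 FPKM in old CMs (SD, n = 5 each), and the ages overlapped. Timp3 made up 44.4% ± 5.15 of the TIMP sum in young and 47.4% ± 5.07 in old libraries, and Timp2 18.9% ± 5.05 and 22.5% ± 3.78. The share of Timp4 was 34.7% ± 7.79 and 26.6% ± 6.55. Timp4 shares in young libraries 1 to 5 were 27.8%, 28.4%, 31.8%, 45.6% and 39.9%, and in old libraries 37.7%, 20.3%, 25.6%, 26.0% and 23.7%. The old libraries other than the first lay below all young ones. Timp1 made up 2.001% ± 0.874 and 3.50% ± 1.10, and its share in old libraries 2 to 5 lay above all young ones. Without young library 4 and old library 1 the Timp4 share was 32.0% ± 5.56 and 23.9% ± 2.60 (SD, n = 4 each), and 0 old libraries then reached the young range. This lack of overlap follows from the choice of libraries. Old library 1 was the only old library within the young range, and the pair was picked after the data were seen. Timp4 had 0.799 ± 0.240 times the level of Timp3 in young and 0.576 ± 0.189 times in old libraries.

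Of the proteases, Mmp15 alone made up 87.2% ± 4.64 of the summed FPKM of the 4 MMPs in young and 82.2% ± 6.86 in old libraries, with the lowest share (70.5%) in old library 1. The MMP sum was 39.1 ± 3.38 and 37.98 ± 4.60 FPKM. Per unit of TIMP RNA there were 0.821 ± 0.306 units of MMP RNA in young and 0.911 ± 0.234 in old libraries, and the ages overlapped. The ratio was lowest in young library 4 (0.379) and in old library 1 (0.620). Since the members of these sums were chosen with results known, no test is given for them.

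**Figure D4:**
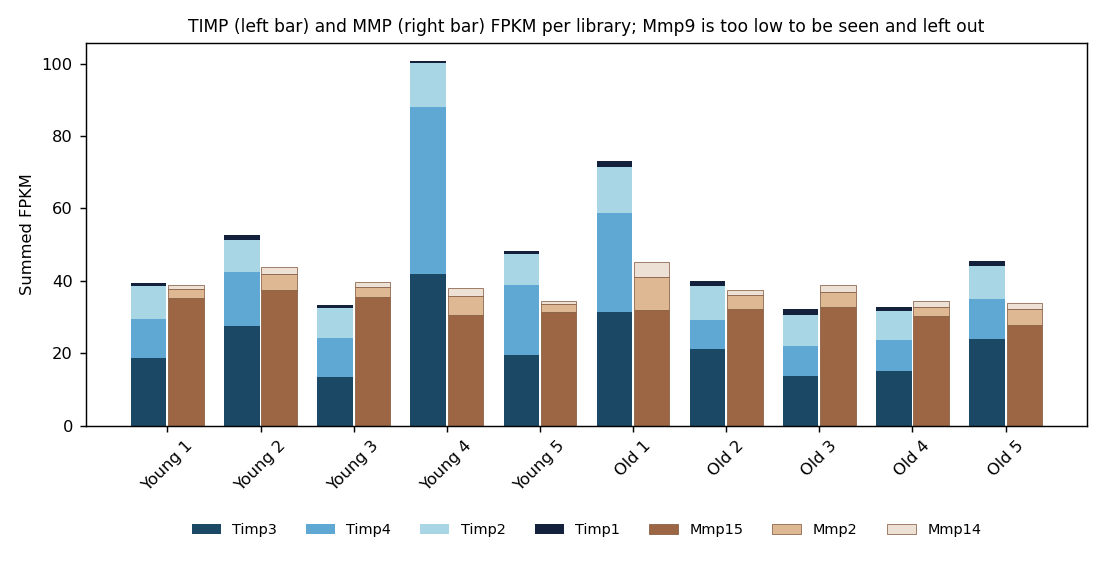
Summed FPKM per library of the TIMPs (blue, left bar of each pair) and of the MMPs (brown, right bar), stacked by gene. The TIMP bar reaches 101 FPKM in young library 4 and 73.0 in old library 1 against 32.2 to 52.6 in the others, while the MMP bars, mostly Mmp15, stay between 33.8 and 45.3.

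The genes whose log2(FPKM + 1) followed each member most closely over the 10 libraries were looked up among all tested features, as a description in which all points share the same 10 libraries. For Timp2, Timp3, Timp4, Mmp2 and Mmp14 they include the high levels of young library 4 and old library 1. Timp2 was nearest to Ifi205, Ly6a and Matn2 (r = 0.97, 0.96 and 0.96), of which Ly6a encodes the SCA1 antigen used to remove cells. Mmp2 was nearest to Col8a1, a collagen gene, to Sp100 and to Ano1 (r = 0.99, 0.98 and 0.97), and Mmp14 to Efr3b, Arhgap1 and Gbp9 (r = 0.98, 0.97 and 0.96). Timp3 was nearest to Rnf130, Gsn and Pgm2l1 (r = 0.95 each), and Timp4 to Rasgrp2, Bcl2l1 and Ercc1 (r = 0.97, 0.96 and 0.95). Timp1 had other neighbours, E230013L22Rik, B3galt2 and Sorbs2 (r = 0.93, 0.91 and 0.91). Adamts1 was nearest to Ccdc122, Phc3 and Tprkb (r = 0.93, 0.93 and 0.92), and Mmp15 to Gm9825, Nmral1 and Brwd1 (r = 0.94, 0.94 and 0.93).

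The other genes of the pathway were taken from 5 lists with 91 genes, of which 43 reached the minimum for testing. Of these 43, 1 passed the test (2.33%, against 1.78% of all features), and 5 had an unadjusted limma p under 0.05 (11.6%, against 20.9%). The fitted difference was positive for 22 and negative for 21, with a median of 0.0025.

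The gene that passed was Furin, which encodes the convertase that cuts the propeptide off membrane-type MMPs and many ADAM and ADAMTS proteases. Furin was at 31.4, 29.8, 30.0, 30.9 and 31.9 FPKM in young libraries 1 to 5 and at 24.2, 25.9, 23.7, 22.6 and 22.8 FPKM in old ones. All old libraries lay below all young ones, as for 5.72% of all features, and neither young library 4 nor old library 1 stood apart. The mean of Furin fell from 30.8 ± 0.877 to 23.8 ± 1.32 FPKM (SD, n = 5 each), with a log2 difference of -0.36 (SE 0.044, limma, adjusted p = 0.00531). The adjusted p was 0.00308 to 0.0223 when 1 library was left out, 0.0379 without young library 4 and old library 1, and 0.0168 when each library was scaled to one total. The call of Furin was kept in 19 alternatives and lost in 1, the fit with same-numbered libraries as blocks.

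Around Furin, 8 of 15 activators and inhibitors were tested and 1 passed. Bsg, a surface protein known as an inducer of MMPs, was at 876 ± 70.1 FPKM in young and 793 ± 33.8 in old CMs (log2 difference -0.14, adjusted p = 0.196). Cst3, which encodes a cysteine protease inhibitor, was at 558 ± 33.9 and 524 ± 44.1 FPKM (-0.093, adjusted p = 0.469), with -0.030 without young library 4 and old library 1. Serpinf1, which encodes pigment epithelium-derived factor, was at 5.34 ± 2.20 and 6.23 ± 2.32 FPKM (0.20, adjusted p = 0.711), with 0.030 without old library 1 and 0.38 without young library 4. None of these 3 passed limma's test.

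Of the other 19 MMP genes, 2 were tested and 0 passed. Mmp11 was at 2.38 ± 0.406 FPKM in young and 2.12 ± 0.249 in old CMs, and Mmp23 at 1.25 ± 0.605 and 1.41 ± 0.149. Mmp1a, Mmp1b, Mmp7 and Mmp20 were listed at 0 in all 10 libraries, and the other untested MMP genes had means of up to 0.588 FPKM (Mmp28). Among 23 other ADAMTS and ADAMTS-like genes 6 were tested and 0 passed. Adamtsl5, whose product lacks a protease domain, was at 38.2 ± 4.04 and 46.9 ± 5.94 FPKM (log2 difference 0.29, limma, adjusted p = 0.142). Its mean FPKM was above that of each of the 9 genes at both ages. Adamts7, a protease of cartilage oligomeric matrix protein, was at 4.79 ± 0.943 and 3.46 ± 0.571 FPKM (-0.37, adjusted p = 0.142), Adamtsl4 at 11.5 ± 1.35 and 9.89 ± 1.84, and Adamts10 at 1.44 ± 0.394 and 1.23 ± 0.590.

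Of 11 genes of the membrane ADAM family, 6 were tested and 0 passed. Several proteases of this family can also be inhibited by TIMP3. Adam15 was at 17.7 ± 6.52 FPKM in young and 15.6 ± 5.95 in old CMs, and it was among the genes that were high in young library 4 and old library 1 (28.5 and 26.2 FPKM). Adam17, the sheddase of tumour necrosis factor, was at 7.92 ± 1.09 and 7.16 ± 0.714 FPKM, Adam19 at 2.89 ± 1.24 and 3.42 ± 1.59, and Adam22 at 1.53 ± 0.154 and 1.82 ± 0.342. Of 23 matrix substrates (collagens, laminins, proteoglycans and others) 21 were tested and 0 passed, with 12 differences above and 9 below 0. Lamb2, a laminin chain, was at 55.6 ± 4.27 and 49.5 ± 4.36 FPKM (log2 difference -0.16, limma, adjusted p = 0.215). Lama2 was at 11.4 ± 1.05 and 10.4 ± 1.11 FPKM, elastin (Eln) at 2.59 ± 1.07 and 1.87 ± 0.688, and the proteoglycan gene Bgn at 18.3 ± 7.08 and 23.3 ± 10.4. Bgn was also high in young library 4 and old library 1 (30.5 and 41.1 FPKM). Its log2 difference of 0.31 was 0.091 without old library 1 and 0.50 without young library 4.

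**Figure D5:**
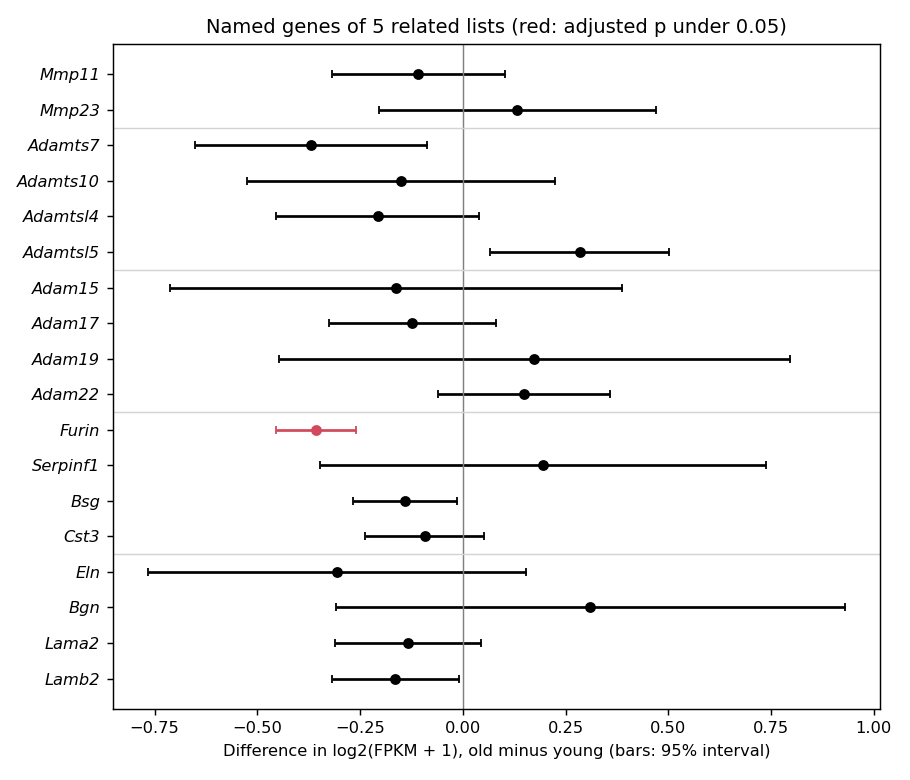
Difference between old and young CMs on the log2(FPKM + 1) scale with its unadjusted 95% interval, for up to 4 genes with the smallest p in each of the 5 related lists (grey lines divide the lists). Furin, in red, is the gene with an adjusted p under 0.05, at -0.36.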

How the data were processed

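Purified CMs of C57BL6J mice aged 3 and 20 months were profiled by RNA sequencing, with 5 libraries per age. The authors aligned reads to the mouse genome (mm9) with TopHat and kept unique alignments, and the deposited FPKM per library were made by the authors with Cufflinks (versions are not given in the sources used here). Total FPKM per library was 1155614 to 3289461, and the depth is unknown. The deposited comparison of the authors (HTSeq counts, DESeq2), with mean counts, fold changes, a test statistic and p-values, was not used, nor were its 10 columns of values per sample, which no label names.

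A stray header line (1) was removed from the FPKM values, and no symbol was shared by members. Of 37819 features, 25202 were above 0 in at least 1 library, and 12340 had a mean of at least 1 FPKM. Their log2(FPKM + 1) values were compared between the ages by two-sided tests of limma 3.58.1 (lmFit and eBayes, trend on) in R 4.3.3, and p-values were adjusted after Benjamini and Hochberg. A log2 difference on this scale understates the change of low genes such as Timp1. The test was checked on simulated data with independent noise in each feature and library. Shifts shared by many genes of a library were not simulated. Mmp9, below the minimum, was compared by an exact permutation test. Tables and figures used Python 3.11.15, pandas 2.3.3 and matplotlib 3.10.9.

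Named genes are the 9 members, up to 4 tested genes with the smallest p in each related list, and the 3 nearest patterns of each tested member. A gene that this rule selects is not reported here and was left out of its list. Members and lists were chosen with earlier results of these data known. Alternatives were a pseudocount of 0.1, no minimum or a minimum of 5 FPKM, median-ratio scaling, the same total of features under 1000 FPKM, the library number as a block, array weights, robust eBayes, a covariate of 38 markers of other cells, exact permutation tests, and leaving out each library in turn. The fit without both young library 4 and old library 1 was added after the data were seen.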

Additional observations from a re-analysis of the deposited data

Results flagged for a closer look

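The 80 groups of 5 libraries were each age of the 9 genes, of 18 named genes of the related lists and of 13 makeup quantities. In 13 of them the highest or lowest library had a gap to its neighbour above Dixon's critical value of 0.71 of the range. Chance gives about 5% for independent groups of normally distributed values. The 80 groups share libraries and several hold the same genes, so their number above the value cannot be measured against that share. Of these 13, 10 were young library 4 or old library 1. In young library 4 they were Timp2 at 12.3 FPKM, Timp4 at 46.0, Mmp23 at 2.30 and the TIMP sum at 101 FPKM. In old library 1 they were Timp2 at 12.5 FPKM, Timp4 at 27.5, Mmp2 at 9.16, Mmp14 at 4.18, Adamts10 at 2.28 and Adam15 at 26.2. The other 3 were Adamts7 at 4.44 and Adamtsl4 at 13.1 FPKM in old library 2 and Bsg at 999 in young library 1. The marker sums that were highest in the same pair of libraries are given above. They were not among the 80 groups, and their part in these values was not tested.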

How the results depend on the processing

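Of the 8 tested members, 0 passed under any alternative. The 220 calls over all features became 135 (30 lower) with median-ratio scaling, 26 (19 higher, 7 lower) with same-numbered libraries as a replicate block, and 53 (38 higher, 15 lower) without young library 4 and old library 1. Higher calls were 40 with a minimum of 5 FPKM and 133 with the same total, lower calls 39 with the same total and 61 without a filter. Leaving out 1 library gave 42 (without old library 3) to 146 calls (without old library 5), 32 to 68 higher and 10 to 85 lower. The block removed the call of Furin (-0.36, limma, adjusted p = 0.105), leaving 0 of the related genes called. Labels do not say that equal numbers share an animal or day, and 0 of 5 libraries correlated best with its own number. A check of 5 numbers is too small to decide whether equal numbers are paired. The block changed no call of a member.

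Leaving out 1 library moved the log2 difference of Timp2 between -0.068 and 0.11, of Timp3 between -0.33 and 0.063, of Adam15 between -0.35 and 0.018 (above 0 without young library 4), and the Mmp9 difference between -0.0106 and 0.0268 FPKM. The exact permutation test of Timp1 (0.536 FPKM, p = 0.0159) passed 0.05 with no adjustment over all features. A minimum of 5 FPKM gave no value for Timp1, Mmp2, Mmp14 and Mmp9. The causes of these shifts were not tested. With unknown depth, no limit can be set on levels listed at 0, and Mmp9 is too low to be compared closely.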

Other observations

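The 2 proteases of the MMP2 activation step were also set against the inhibitors, a quantity picked out after its values were seen, among 13 makeup quantities. The summed FPKM of Mmp2 and Mmp14 per summed FPKM of the 4 TIMPs was 0.0933, 0.120, 0.126, 0.0751 and 0.0651 in young libraries 1 to 5 and 0.183, 0.131, 0.187, 0.126 and 0.130 in old ones, with means of 0.0959 ± 0.0268 and 0.151 ± 0.0308 (SD, n = 5 each). Each old library was above each young one, with the closest pair equal to 3 digits, and no test is given. In all other makeup quantities the young and old libraries overlapped. Of all single tested features, 6.91% were free of overlap. Mmp2 per Timp4 was 0.203 ± 0.0815 in young and 0.401 ± 0.0921 in old libraries, with 4 old libraries above all young ones. Mmp2 per Timp2 was 0.364 ± 0.108 in young and 0.481 ± 0.159 in old libraries, with only 1 old library above all young ones. Timp1 per Timp2 was 0.102 ± 0.0346 and 0.154 ± 0.0273, with 3 old libraries above all young ones.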
